A study of Mus musculus with 8 samples.

Results

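The constant region genes of the immunoglobulins encode the part of an antibody that is shared by all antibodies of one class. The 10 symbols looked up by name were the heavy chain genes Ighm, Ighd, Ighg3, Ighg1, Ighg2b, Ighg2c and Igha and the light chain genes Igkc, Iglc1 and Iglc2. The family was chosen by the FPKM values of both genotypes in wounds, which earlier results of these data had shown to be higher in JunB cKO, so that all values below are a description without a test. Of the 10 symbols, 9 were listed in the table for hair plucking among 47990 loci, the same 9 in the table for wounds among 46726 loci, and 0 in the table for unperturbed keratinocytes among 26457 loci. Iglc2 was listed only in a locus joined with the joining segment Iglj2 and is therefore given apart from the 9.

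An antibody consists of heavy and light chains, each with a variable domain that binds the antigen and a constant region. B cells first make IgM and IgD from Ighm and Ighd, and upon activation they can switch to IgG, IgE or IgA by joining the same variable domain to a constant gene further downstream. Light chains are of the kappa type, from the single gene Igkc, or of the lambda type, from several genes. Plasma cells, the end stage of the B lineage, secrete antibody and hold very large amounts of these transcripts. IgA is the class best known from mucosal surfaces, where it is secreted as dimers linked by the J chain.

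RNA-seq was performed on JunB cKO mice, in which floxed JunB alleles are deleted by Cre recombinase under the K14 promoter, hence in basal epidermal progenitors and their progeny, and on wild type mice without the deletion. Both genotypes were C57BL/6, labelled JunB -/- and JunB +/+. The 3 conditions were unperturbed keratinocytes by their labels, which the study describes as skin of mice aged 60 days, dorsal skin depilated at 54 days of age and taken 4 days later at 58 days, and skin biopsies 30 days after wounding, for which no age was found. Each group was a pool of RNA from 3 samples, and the labels list 1 library per genotype for the first 2 conditions and 2 for wounds, 8 in all. Whether JunB was deleted in B lineage cells was not measured. Each table gives 1 value per genotype, in FPKM (fragments scaled to the length of the transcript and to the number of mapped fragments), so that no spread between samples can be given for any value. The 3 tables were normalized separately. In whole tissue, fewer cells of a type and less RNA per cell cannot be told apart.

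To show what the reads had to tell apart, the first 75 coding bases of the main genes, the length of 1 read, are given from the GENCODE M21 transcripts on GRCm38, 5' to 3' on the coding strand. They lie in the first exon of the secreted form of Ighm (chr12:113422656-113422730, minus strand), the first exon of Igha (chr12:113260162-113260236, minus strand) and the single exon of Igkc (chr6:70726435-70726509, plus strand).
Ighm: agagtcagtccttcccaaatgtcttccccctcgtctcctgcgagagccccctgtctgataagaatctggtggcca
Igha: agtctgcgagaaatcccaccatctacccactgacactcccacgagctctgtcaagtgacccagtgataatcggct
Igkc: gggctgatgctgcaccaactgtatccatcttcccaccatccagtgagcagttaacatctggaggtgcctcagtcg
The coding sequences of the secreted Igha and Ighm forms were identical at 47.8% of 1400 aligned positions. No 75-base window of Igha, Ighm, Ighd, Ighg1, Igkc or Iglc1 occurred in an annotated transcript of another gene. The IgG genes were more alike, with 85.7% identity between Ighg2b and Ighg2c, which shared 6 windows, and Ighg2b had in all 20 of its 2603 windows in common with Ighg2c or Ighg3.

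The lambda genes are shown because Iglc2 and Iglc3 were the most alike of the pairs aligned. Iglc3 is not among the 10 symbols. Aligned stretches of 75 coding bases are given for Iglc2 (chr16:19198778-19198852), Iglc3 (chr16:19065607-19065681) and Iglc1 (chr16:19061997-19062071). All lie on the minus strand, each in the exon of the constant domain. The stretches of Iglc3 and Iglc1 begin at the first coding base, and that of Iglc2 just after it. Capitals mark bases that differ from Iglc2.
Iglc2: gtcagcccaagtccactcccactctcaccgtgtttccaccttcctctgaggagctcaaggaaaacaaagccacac
Iglc3: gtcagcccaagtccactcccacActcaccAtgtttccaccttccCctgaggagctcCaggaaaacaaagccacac
Iglc1: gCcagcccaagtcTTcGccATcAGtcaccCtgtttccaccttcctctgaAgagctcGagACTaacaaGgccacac
In this stretch Iglc3 differed from Iglc2 at 4 positions and Iglc1 at 15. Over the whole coding sequence, Iglc2 and Iglc3 were 96.2% identical, but only 5 of 537 Iglc2 windows and 5 of 378 Iglc3 windows of 75 bases were shared, whereas Iglc1 and Iglc2 were 73.4% identical. Reads from the shared windows could be assigned to either gene, and the tables place Iglc1 and Iglc3 in the same joined locus.

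In JunB cKO wounds at day 30, the constant genes of IgA and of the kappa light chain had the highest values of the family, and both were several-fold above wild type. IgM differed less between the genotypes, and the IgG genes were low in both. Of the 9 listed genes, 7 had higher and 1 had lower values in JunB cKO, and Ighg3 was listed at 0 in both genotypes. Of the genes of the family, 6 reached an FPKM of 1 in at least one genotype, and 3 of them, Igha, Igkc and Iglc1, were at least 2-fold higher in JunB cKO on the log2(FPKM + 1) scale, while 0 were at least 2-fold lower. Of all 17787 loci that reached an FPKM of 1 in one genotype or both, 5.68% were higher by 2-fold or more and 5.19% lower by as much. The median log2 ratio of the 9 genes was 0.42, beside 0 over all loci of the table. Over the 6 genes that reached 1 FPKM it was 1.40, beside 0.01 for the loci that did.

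Igha, the constant gene of IgA, lies on chromosome 12 between 113254830 and 113260236 on the minus strand (ENSMUSG00000095079). Its level in wounds was 7.34 FPKM in wild type against 32.8 FPKM in JunB cKO, a 4.46-fold difference with a log2 ratio of 2.02. This was the largest of the family with 1 FPKM added, whereas with 0.1 FPKM added Iglc1, listed at 0 in wild type, had 4.80 and Igha 2.14. Among the loci listed above 0, this corresponds to percentile 62.3 in wild type against 85.5 in JunB cKO. About 275 reads in wild type and 1133 in JunB cKO lay behind these values. These read numbers follow from the step of 1 read in single-exon receptor genes and from the shortest annotated transcript, and they are rough.

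Ighm, which encodes the heavy chain of IgM (chromosome 12, 113418558 to 113422730, ENSMUSG00000076617), was at 18.3 FPKM in wild type against 24.1 FPKM in JunB cKO wounds. Its ratio of 1.32 stayed well under the 2-fold limit. Wild type wounds thus held more Ighm than Igha, with an Igha to Ighm ratio of 0.402, and JunB cKO wounds held less, with a ratio of 1.36. Ighd, the IgD gene next to it, was low, at 0.887 FPKM in wild type against 1.41 FPKM in JunB cKO.

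The 4 IgG genes together reached 1.31 FPKM in wild type against 3.10 FPKM in JunB cKO wounds. Ighg2b was the highest of them, with 0.540 and 1.94 FPKM, respectively, a 3.60-fold difference. Its log2 ratio was 0.93 with 1 FPKM added, just under the limit, but 1.68 and 1.83 with 0.1 and 0.01 FPKM added, which raised the number of genes at least 2-fold higher from 3 to 4. Ighg1 was at 0.496 and 0.995 FPKM. Its unadjusted ratio was 2.01, but its log2 ratio with the added 1 FPKM was only 0.42. Ighg2c, the gene that C57BL/6 mice carry in place of Ighg2a, was the only one of the family with a lower value in JunB cKO, 0.279 against 0.166 FPKM, which is about 11 against 6 reads. Ighe, the IgE gene, which is no part of the 9, was listed at 0 in both genotypes.

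**Figure D1:**
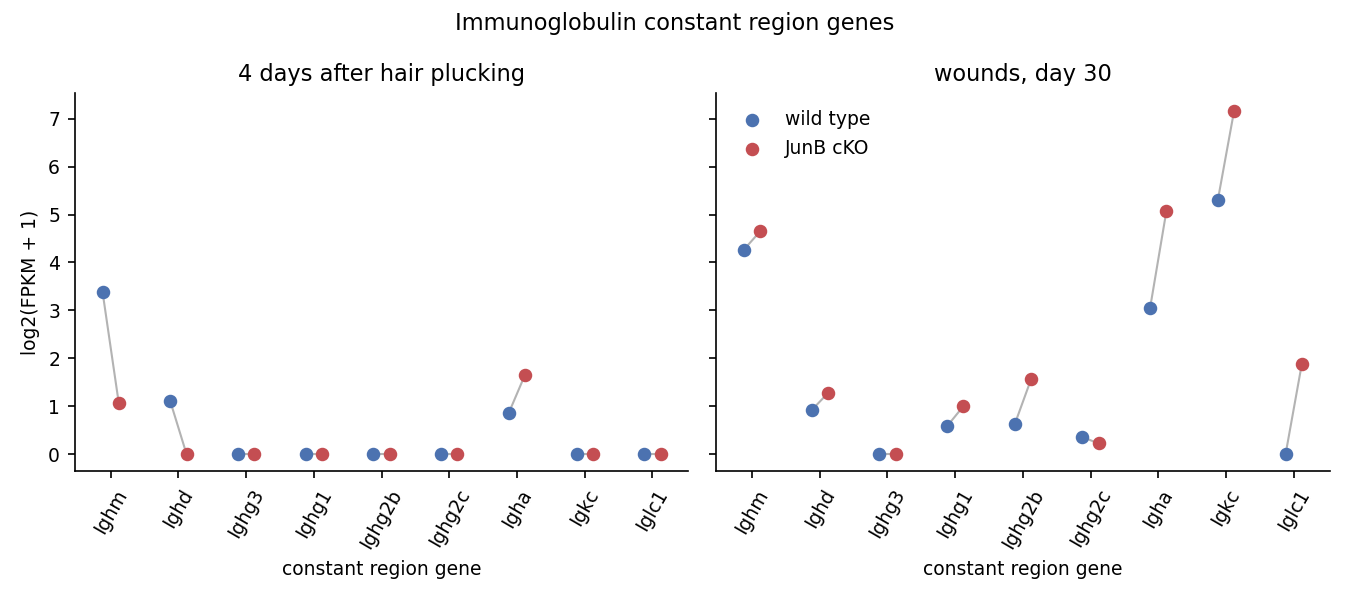
FPKM values of the 9 listed constant region genes on a log2(FPKM + 1) axis, 4 days after hair plucking (left) and in wounds at day 30 (right). Each point is the single value of a genotype, blue for wild type and red for JunB cKO, and grey lines join both values of a gene; in wounds, Igha, Igkc and Iglc1 show the steepest lines.

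The summed heavy chain FPKM in wounds was 27.8 in wild type against 61.4 in JunB cKO, a ratio of 2.21. Igha made up 26.4% of this sum in wild type against 53.4% in JunB cKO. The share of Ighm was 65.7% in wild type against 39.3% in JunB cKO. The IgG genes held 4.73% and 5.06%, respectively. Along the locus, the classes with high values in wounds were those at either end. Ighm opens the row, and Igha lies last, 162 kb downstream. The genes in between, from Ighd at 6.41 kb to Ighe at 149 kb, were all below 2 FPKM.

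**Figure D2:**
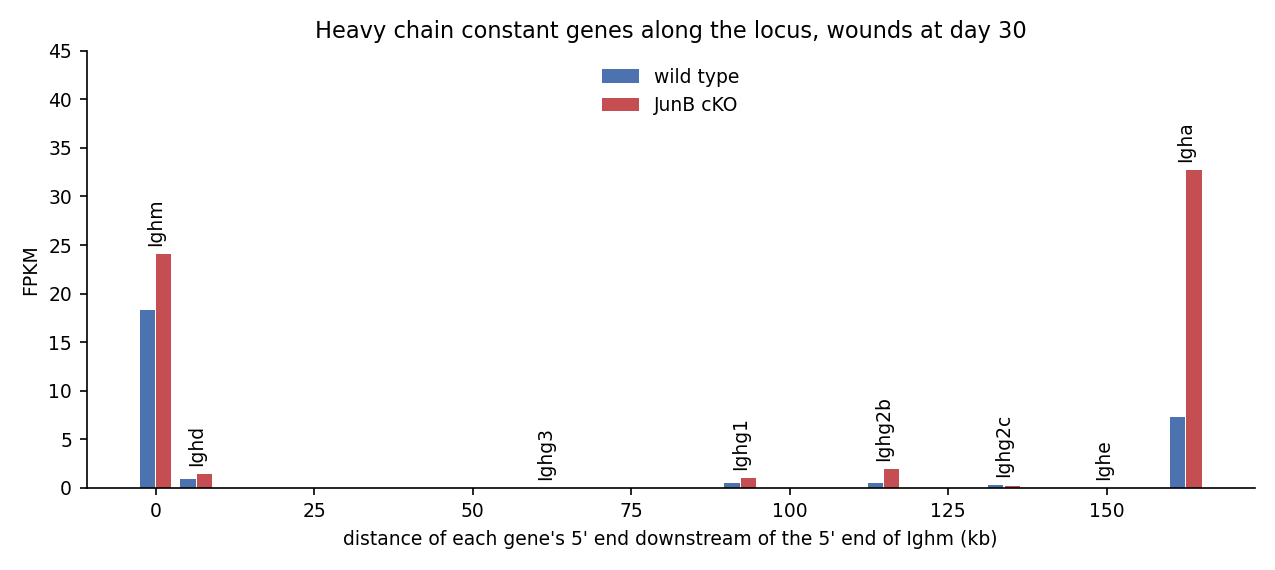
FPKM in wounds at day 30 of the heavy chain constant genes, including Ighe, plotted against the distance of each gene downstream of Ighm in kb (blue, wild type; red, JunB cKO; 1 value per bar). Values are high at both ends of the row, for Ighm and for Igha, and the Igha bar of JunB cKO is the tallest with 32.8 FPKM.

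**Figure D3:**
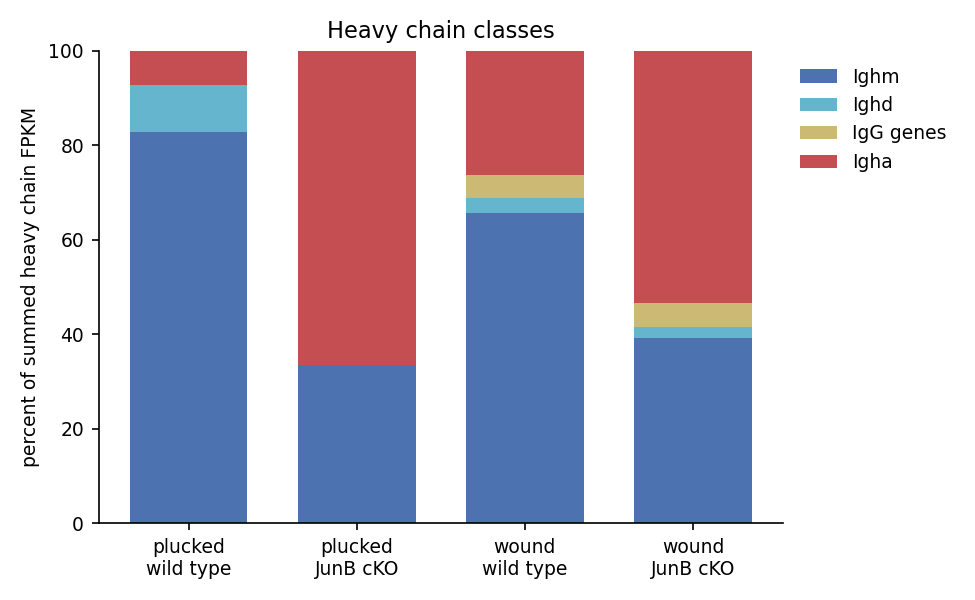
Share of each heavy chain class in the summed heavy chain FPKM, in percent, for both genotypes after hair plucking and in wounds. The Igha share is larger in JunB cKO in both conditions, but the plucked bars stand for sums of only 11.4 FPKM in wild type against 3.24 FPKM in JunB cKO.

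Igkc, the only kappa constant gene (chromosome 6, 70726435 to 70726966, ENSMUSG00000076609), had the highest level of the family. It was at 38.6 FPKM in wild type against 143 FPKM in JunB cKO wounds, a 3.70-fold difference with a log2 ratio of 1.86. In JunB cKO this placed Igkc at percentile 97.3 of all loci above 0, compared with 88.6 in wild type. The table gives Igkc for a joined locus of chromosome 6 from 70719074 to 70740554, which is longer than the gene itself.

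Iglc1, a lambda constant gene on chromosome 16, was listed at 0 in wild type wounds but at 2.69 FPKM in JunB cKO, about 38 reads. No fold is given against a value of 0, and its log2 ratio of 1.88 depends on the added 1 FPKM. Iglc3, which was not among the 10 symbols, was at 1.47 FPKM in wild type against 3.07 FPKM in JunB cKO. The joint locus of Iglc2 and Iglj2 was at 0.905 and 1.76 FPKM, respectively, and Iglc4 was listed at 0 in both. All 3 lambda entries above 0 thus had the higher value in JunB cKO, with sums of 2.37 and 7.52 FPKM. They are not 3 separate loci, since Iglc1 and Iglc3 are listed for the same joined locus. Kappa made up 94.2% of the light chain FPKM in wild type against 95.0% in JunB cKO when these lambda entries were counted. Over the listed light chain genes, the sum was 38.6 FPKM in wild type against 146 FPKM in JunB cKO, a ratio of 3.77, which exceeds that of the heavy chains. The ratio of light to heavy chain FPKM was 1.39 in wild type against 2.37 in JunB cKO.

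At 4 days after hair plucking, the family was largely not seen, and the genes that were seen did not move one way. Ighg1, Ighg2b, Ighg2c, Ighg3, Igkc and Iglc1, 6 of 9 genes, were listed at 0 in both genotypes. Ighm and Ighd were lower in JunB cKO, and Igha was higher. On the log2(FPKM + 1) scale, 0 genes were at least 2-fold higher, where 18.4% of the 16932 loci that reached 1 FPKM in one genotype or both were, and 2 of the 3 genes that reached 1 FPKM were at least 2-fold lower, where 16.0% of these loci were. The median log2 ratio of the 9 genes was 0, as over all loci of the table. Over the 3 genes that reached 1 FPKM it was -1.10, beside 0.03 for the loci that did. An exact 0 in these tables can be a failed estimate, since 4 of 76 ribosomal protein loci in wild type and 5 in JunB cKO were also listed at 0 after plucking, compared with 0 of 69 in wounds.

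Ighm was at 9.44 FPKM in wild type against 1.08 FPKM in JunB cKO plucked skin, 8.73-fold higher in wild type, with a log2 ratio of -2.33. The JunB cKO value stood for about 16 reads. Ighd was at 1.15 FPKM in wild type but listed at 0 in JunB cKO. Igha was at 0.818 FPKM in wild type against 2.16 FPKM in JunB cKO, a 2.64-fold difference on about 24 reads in JunB cKO, with a log2 ratio of 0.80. The number of reads behind 1 FPKM could not be estimated for wild type plucked skin. The summed heavy chain FPKM was 11.4 in wild type against 3.24 in JunB cKO, a log2 ratio of -1.55. No light chain constant gene was listed above 0 beside them in either genotype.

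The variable genes, which are joined to the constant genes in mature antibody transcripts, were read from the same libraries and counted by their prefix. In wounds, 19 of 185 Ighv loci in wild type and 30 in JunB cKO were listed above 0, 8 of them in both. Their summed FPKM was 17.8 in wild type against 75.1 in JunB cKO, 4.21-fold higher. An FPKM of 1 was reached by 4 Ighv loci in wild type and 22 in JunB cKO. Of 160 Igkv loci, 17 and 25, respectively, were above 0, 6 of them in both, and the sums were 12.6 and 58.5 FPKM, a 4.64-fold difference. Of 3 Iglv loci, 1 was above 0, Iglv1, at 0.794 FPKM in wild type against 2.62 FPKM in JunB cKO. Iglv1 is placed in the same joined locus as Iglc1 and Iglc3 and is not separate from them. Over all loci in wounds, 53.0% were listed above 0 in wild type against 48.8% in JunB cKO. The share of all loci above 0 in only one genotype was not computed. The overlap of variable loci between the genotypes is therefore not read as a result. Nor was the share of all loci that reached 1 FPKM in each genotype computed. The counts of 4 and 22 Ighv loci are likewise not read as a result.

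No single variable gene carried these sums in JunB cKO. Ighv6-6, named here after its value was seen, was the highest in both genotypes, with 6.38 FPKM in wild type against 13.5 FPKM in JunB cKO, or 35.8% and 18.0% of the Ighv sum. Without it, the Ighv sums were 11.4 FPKM in wild type against 61.5 FPKM in JunB cKO. The highest Igkv locus of wild type held 23.9% of its sum and that of JunB cKO, a different locus, 14.2%. After hair plucking, 0 of 185 Ighv loci were above 0 in either genotype. Only Igkv15-103, with 12.9 FPKM in JunB cKO, and Iglv3, with 14.3 FPKM in wild type, were listed above 0, and each of them was at 0 in the other genotype. These 2 names were also chosen after their values were seen.

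**Figure D4:**
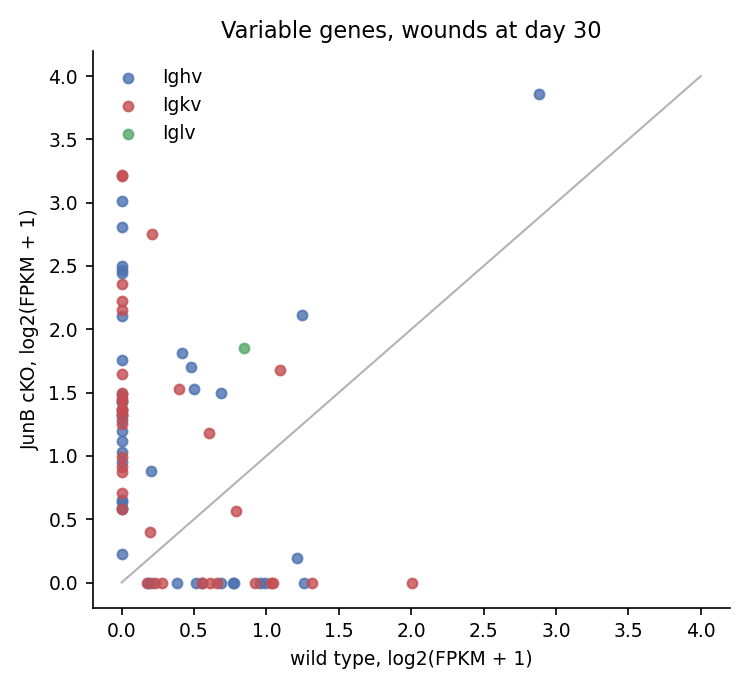
Variable genes listed above 0 in at least one genotype in wounds at day 30, wild type against JunB cKO on log2(FPKM + 1) axes, with 41 Ighv loci (blue), 36 Igkv loci (red) and 1 Iglv locus (green). The grey line marks equal values. Many loci lie on an axis, with 22 Ighv and 19 Igkv loci above 0 in JunB cKO only and 11 of each in wild type only. The share of all loci above 0 in only one genotype was not computed.

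Of the plasma cell markers, Jchain, whose product links IgA and IgM units, was among the genes with higher values in JunB cKO wounds. It was at 3.98 FPKM in wild type against 13.2 FPKM in JunB cKO, a 3.32-fold difference, and was the 1 of 12 listed markers at least 2-fold higher, with 0 at least 2-fold lower. The median log2 ratio of the 12 was 0.18. Mzb1, a chaperone of antibody assembly, was low at 0.351 FPKM in wild type against 0.501 FPKM in JunB cKO. Tnfrsf17, the survival receptor BCMA of plasma cells, was at 0.464 FPKM in wild type but listed at 0 in JunB cKO. After hair plucking, Jchain was listed at 0 in both genotypes, 2 of 12 markers were at least 2-fold higher (Derl3 and Mzb1, both listed at 0 in wild type) and 1 was at least 2-fold lower (Sdc1, which keratinocytes also express, 198 FPKM in wild type against 94.6 FPKM in JunB cKO).

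Of 14 B cell markers, 7 were higher and 6 lower in JunB cKO wounds, with a median log2 ratio of 0.01, and 6 reached 1 FPKM in one genotype or both. Cd79a, part of the B cell receptor, was listed at 0 in both genotypes, and Ms4a1, which encodes CD20, was at 0.0481 FPKM in wild type against 0 in JunB cKO. Of the list, 1 was at least 2-fold higher, Cd22 with 0.396 FPKM in wild type against 2.01 FPKM in JunB cKO, and 0 were at least 2-fold lower. Named after their values were seen, Blk, a kinase of B cell receptor signalling, was at 0.0709 and 0.727 FPKM, Pax5, the transcription factor of B cell identity, at 0.676 and 1.21 FPKM, and Cd79b, the partner of Cd79a, at 0.325 and 0.703 FPKM. Others of the list went the other way, also named after their values were seen. Cd37 was at 6.26 FPKM in wild type against 3.96 FPKM in JunB cKO, and Fcer2a at 0.303 and 0.0823 FPKM. The summed FPKM of the list was 55.1 in wild type against 40.1 in JunB cKO, of which Ebf1, also expressed in stromal cells, gave 43.5 and 27.4 FPKM. After hair plucking, Cd79a was again listed at 0 in both and Ms4a1 only in wild type above 0, at 0.874 FPKM. There, Ebf1 was at 20.6 FPKM in wild type against 4.43 FPKM in JunB cKO, and Fcer2a was listed at 0 in wild type but at 1.46 FPKM in JunB cKO.

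Genes of class switching and antibody transport differed little in wounds, where 0 of 7 were at least 2-fold higher or lower. Pigr, the receptor that carries IgA across epithelia, was at 0.128 FPKM in wild type against 0.158 FPKM in JunB cKO. After plucking, Ung, which removes uracil from DNA, was at 0.415 FPKM in wild type against 5.27 FPKM in JunB cKO, and Trim21, a cytosolic antibody receptor, was at 14.4 and 5.44 FPKM, respectively. Pigr was at 0.578 and 0.194 FPKM. Of 9 Fc receptor genes, 0 in wounds were at least 2-fold different, whereas 5 after plucking were at least 2-fold lower in JunB cKO, among them Fcgr1 with 17.0 FPKM in wild type against 0.608 FPKM in JunB cKO and Fcgr3 with 17.3 and 2.41 FPKM.

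Among factors that recruit or sustain B lineage cells, 2 of 19 listed genes were at least 2-fold higher in JunB cKO wounds and 1 at least 2-fold lower. Tgfb1, a cytokine known to direct switching to IgA, was at 6.88 FPKM in wild type against 19.3 FPKM in JunB cKO. Ccr6, a receptor of B cells and some T cells, was at 0.611 and 2.91 FPKM. Cxcl13, the chemokine of B cell follicles, was at 3.44 FPKM in wild type against 0.292 FPKM in JunB cKO. Ccl28, which attracts IgA plasma cells, was at 0.300 FPKM in wild type against 0.305 FPKM in JunB cKO. After plucking, 0 of 19 were at least 2-fold higher, while 4 were lower by as much. They were Tnfrsf13b (16.1 FPKM in wild type against 0.198 FPKM in JunB cKO), Ccr10, Cxcl12 and Tnfrsf13c. All 4 were among the 9 of the 19 that reached 1 FPKM. Over all loci that reached 1 FPKM, 16.0% were lower by as much.

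Markers of other cell types are given for comparison. Of all loci that reached 1 FPKM, the shares past the 2-fold limit were 5.68% higher and 5.19% lower in wounds and 18.4% and 16.0% after plucking, against which the counts of all marker lists are to be read. Only genes that reached 1 FPKM can pass this limit, so a share of all listed genes is lowered by those that did not. In wounds, all 8 mast cell markers were higher in JunB cKO, by a median log2 ratio of 0.63, with summed FPKM of 115 in wild type against 182 in JunB cKO. Red blood cell markers had a median log2 ratio of 0.62 with sums of 156 and 236 FPKM, and Hbb-bt, a beta globin, was at 5.39 and 14.5 FPKM. Their part in the higher constant gene values was not tested. Macrophage and monocyte markers had a median log2 ratio of -0.02 in wounds, T cell markers -0.01, fibroblast markers 0.06, skeletal muscle markers 0.14 and keratinocyte markers 0.08, and none of the genes of these 5 lists was at least 2-fold different.

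After plucking, 11 of 12 macrophage and monocyte markers were at least 2-fold lower in JunB cKO, with sums of 339 FPKM in wild type against 122 FPKM in JunB cKO, and so were 4 of 5 listed skeletal muscle markers, with sums of 199 and 26.0 FPKM, and 4 of 8 fibroblast markers, with sums of 5175 and 1911 FPKM, although the labels of the plucked samples name keratinocytes as the tissue. The median log2 ratio was -1.44 for macrophages, -2.32 for skeletal muscle, -0.89 for fibroblasts, and 0.27 for keratinocyte markers. T cell markers had 0 of 12 at least 2-fold higher and 1 lower, mast cell markers 1 of 8 higher and 2 lower, and red blood cell markers 1 of 7 higher and 0 lower. The macrophage, muscle and fibroblast lists were lower together with Ighm and Ighd, and their part in the lower values was not tested.

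**Figure D5:**
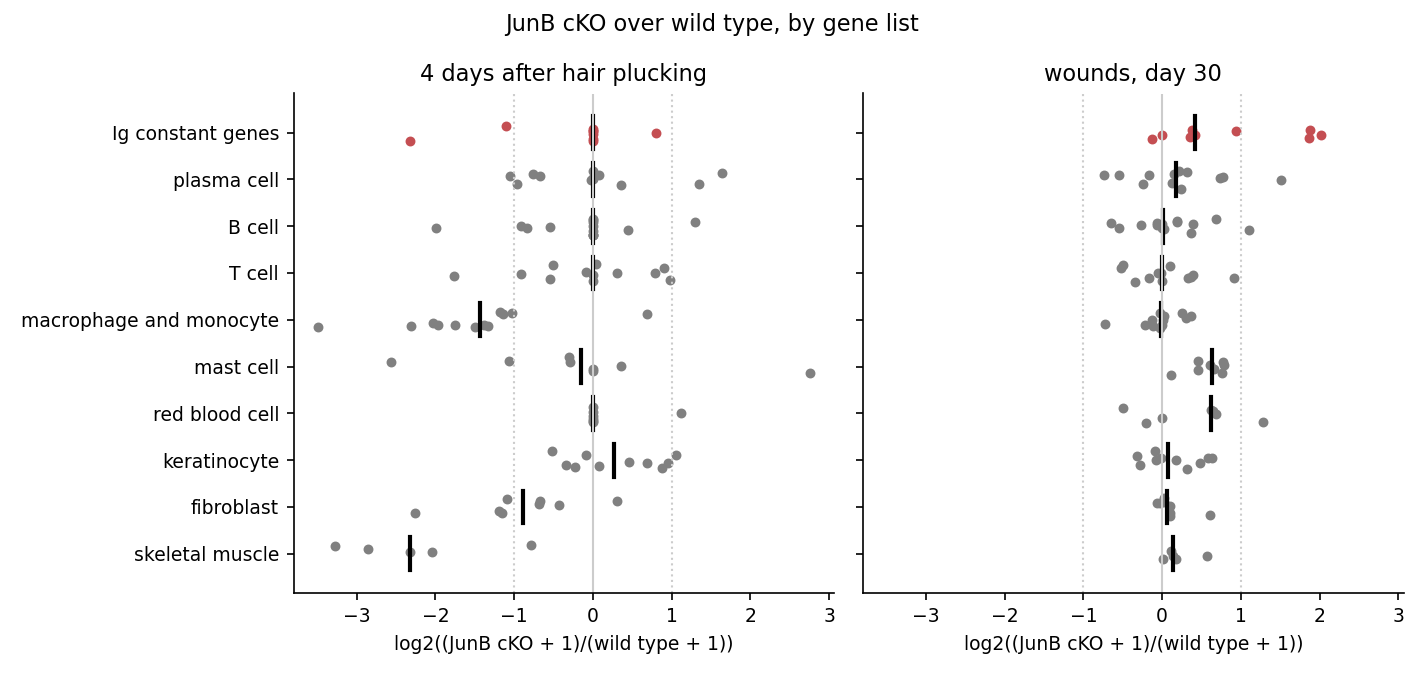
Log2 ratio of JunB cKO over wild type, with 1 FPKM added to each value, for the 9 constant genes (red) and 9 marker lists (grey), after hair plucking (left) and in wounds (right). Each point is a gene, the black bar is the median of the list, and dotted lines mark the 2-fold limit; in wounds 3 constant genes lie beyond the upper line, while after plucking most macrophage and muscle markers lie beyond the lower one.

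The fibroblast list summed to 31.4 FPKM in unperturbed wild type and 34.3 FPKM in JunB cKO, compared with 5175 FPKM in plucked wild type skin, across tables that were normalized separately. In unperturbed keratinocytes, none of the 10 symbols and no symbol with the prefix Ighv, Igkv or Iglv was found in the table used here, so that no value of the family is given. Jchain, listed there under its older symbol Igj, was at 0.0311 FPKM in wild type against 0.739 FPKM in JunB cKO, and Cd79a was at 0.0525 and 0.534 FPKM. These low values were read beside a general difference between both libraries, since 39 of 1061 sensory receptor loci in wild type and 898 in JunB cKO were listed above 0. Its part in the Jchain and Cd79a values was not tested. In this table, 3 of 11 listed plasma cell markers, 2 of 14 B cell markers, 1 of 8 Fc receptor genes, 4 of 19 recruitment and survival factors, 1 of 11 macrophage markers, 2 of 8 mast cell markers and 1 of 5 red blood cell markers were at least 2-fold higher in JunB cKO. None of the 12 T cell, 7 switching and transport, 10 keratinocyte, 8 fibroblast and 6 skeletal muscle genes was, and 0 genes of any list were at least 2-fold lower. Of the 15973 loci of this table that reached 1 FPKM in one genotype or both, 15.4% were at least 2-fold higher and 1.42% lower by as much. Such loci alone can pass the limit. In the lists with higher genes, 8 plasma cell markers, 3 B cell markers, 5 Fc receptor genes and 11 recruitment and survival factors reached 1 FPKM. So did 8 macrophage markers, 3 mast cell markers and 3 red blood cell markers.

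As a check of the labels, Junb was below wild type in JunB cKO throughout, with 268 and 31.4 FPKM in unperturbed keratinocytes, 40.8 and 11.7 FPKM after plucking, and 33.4 and 15.4 FPKM in wounds. The share of loci listed above 0 ranged from 35.6% to 88.8% over the 6 values, and the number of reads behind 1 FPKM of a transcript of 1 kb was about 34.1 in wild type against 31.4 in JunB cKO wounds.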

How the data were processed

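For each group, RNA from 3 samples was combined before rRNA removal, and stranded libraries were read as single reads of 75 bases. The authors trimmed the reads, aligned them to GRCm38 (mm10 in the submitters' processing notes) with TopHat or HISAT2, assembled transcripts with Cufflinks and compared genotypes with Cuffdiff. The deposited FPKM tables hold 1 value per genotype and locus, and wound libraries were not separated. The authors' fold changes, p-values and q-values in the same tables were not used.

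Which table belongs to plucked skin and which to wounds is given by the names of the tables, and the genotype from the names inside them. Where a symbol had several loci, the one with the largest summed FPKM was used. Ratios are log2((JunB cKO + 1)/(wild type + 1)), and a 2-fold difference is a value of at least 1 or at most -1. No test was possible with 1 value per genotype. The numbers of reads were estimated from receptor genes of 880 to 1000 bp. They assume the full length of a transcript and overstate short ones such as Igkc. The step of 1 read rested on 21 receptor loci in wild type wounds, but on only 3 in JunB cKO wounds and 4 in plucked JunB cKO skin. Coordinates are 1-based, with gene models and sequences of GENCODE M21. The members and the 13 other gene lists were chosen with earlier results of these data known. Of each list, the text names up to 4 genes with the largest differences of at least 2-fold, and Jchain, Mzb1, Cd79a, Ms4a1, Pigr and Ccl28 in any case. Tnfrsf17, Blk, Pax5, Cd79b, Cd37, Fcer2a and Ebf1 in wounds were named after their values were seen. A planned search for the genes most like the heavy chain sum over 6 values was not run, since only 4 values exist. Calculations were tested on simulated data and run in Python 3.11.15 with pandas 2.3.3, numpy 2.4.6 and matplotlib 3.10.9.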

Additional observations from a re-analysis of the deposited data

Results flagged for a closer look

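Ighm, Ighd and the summed heavy chain FPKM went in opposite directions in the 2 conditions, being lower in JunB cKO after hair plucking and higher in wounds. In wounds, the log2 ratios of Ighm and Ighd were only 0.38 and 0.35, under the 2-fold limit. The log2 ratio in wounds minus that after plucking was 2.71 for Ighm, 1.46 for Ighd and 2.66 for the summed heavy chain FPKM. Each ratio rests on 1 value per genotype, and the difference between the conditions was not tested. Igha was higher in JunB cKO in both.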

How the results depend on the processing

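Over the 11 log2 ratios of single genes, 0 changed sign under the settings tried. Most settings could not change a sign, since a pseudocount keeps the direction of a difference and a filter leaves the values unchanged. The unchanged signs therefore say little about how firm the directions are. Of the recomputed ratios of single genes, 65 moved by less than 1.5-fold and 9 by more, all under the smaller pseudocounts. Of the recomputed counts, medians and sums, 61 stayed within 1.5-fold of the reported value and 6 did not. After hair plucking, 1 gene instead of 0, Igha, was at least 2-fold higher with a pseudocount of 0.1 or 0.01 FPKM, and 1 passed a limit of 1.5-fold. The median log2 ratio after plucking was -1.10 instead of 0 over genes that reached an FPKM of 1 in one genotype or both, and -1.10 over loci with the status OK, because both settings leave out the 6 genes at 0. In wounds, the median was 1.40 over genes that reached an FPKM of 1. With Iglc3 and the joint Iglc2 and Iglj2 locus, added after seeing the data, the log2 ratio of the light chain sum in wounds was 1.85 instead of 1.89. Settings for unperturbed keratinocytes and for light chains after plucking gave no value. No paired analysis was possible because the wound table does not separate the numbered libraries, and libraries could not be left out in turn for the same reason. Low depth limits genes such as Ighd, Ighg1, Ighg2c and Iglc1, which rest on 0 to 38 estimated reads per genotype in wounds.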
